A study of Mus musculus with 6 samples.

Results

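The RNA exosome is the main 3′-to-5′ RNA-degrading machine of eukaryotic cells, and its core subunits were examined here as a group of 10 genes, of 55740 in the table. They were taken by gene name: Exosc1, Exosc2, Exosc3, Exosc4, Exosc5, Exosc7, Exosc8, Exosc9, Exosc10 and Dis3. The group was chosen by its measured difference in TPM between lysine and PBS in these same samples. Values from that contrast are therefore given for the subunits as a description, and no adjusted p is given for a single subunit. The plot of log2 fold changes by RNA decay list marks which subunits passed the test used below. Nothing is read from those marks, because the same contrast chose the group. The samples were dendritic cells, the cells that present antigen to T cells, derived from bone marrow of C57BL/6J mice whose age the labels do not state. In 3 samples the cells had received 18 mM lysine for 6 h, and in the other 3 they had received phosphate-buffered saline (PBS). The labels name no other agent or allele, and do not say whether replicates were separate animals or cultures, so the spread between them may be technical. Expression is in TPM, transcript abundance corrected for length and set so that a sample sums to 1000000.

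In the complex, proteins related to the bacterial enzyme RNase PH pair up into a ring (RRP41 with RRP45, RRP42 with MTR3 and RRP43 with RRP46), and a cap of RNA-binding proteins sits on it. In animals this barrel has lost its own catalytic activity. It threads RNA to the nucleases, DIS3 at its base and EXOSC10 at its top. In the nucleus it trims ribosomal and small nucleolar RNA precursors and removes short-lived transcripts, and in the cytoplasm it degrades mRNA from the 3′ end. Helicases and adaptor proteins bring it its substrates.

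The 10 genes lie on 8 chromosomes, and 5 of them start within 1000 bases of a gene that runs the other way (head to head), by the principal transcripts of GENCODE M21. Among all tested protein-coding genes 14.8% had such a neighbour (1627 of 10963). The gaps between start sites were 9 bases for Exosc7 and Zdhhc3, 136 for Dis3 and Pibf1, 145 for Exosc8 and Alg5, 193 for Exosc1 and Zdhhc16, and 209 for Exosc5 and Bckdha. Promoter sequences (250 bases before to 50 after the start, RefSeq, GRCm38.p6) were on hand for 8 of the 10 genes. Of those 8, 7 held the GC box word GGGCGG on either strand, as did 35.7% of all 32851 promoters, and 4 held CCAAT, against 37.4%. None held TATAAA (13.6% of all promoters), the AP-1 word TGACTCA (5.20%) or TGATGCA, the core of the element bound by ATF4 (3.15%). The ETS word CCGGAAG was in 3 (Dis3, Exosc3 and Exosc10; 8.86% of all), the NRF1 word GCATGCG in 2 (Exosc5 and Exosc10; 3.58%), the YY1 word AAGATGG in 1 (Exosc2; 6.34%) and the E-box CACGTG in 1 (Exosc5; 7.15%). Exosc10 has 2 promoters in the table, and a gene was counted where either held the word, while the percentages are per promoter. Its ETS word lies only in the second, whose last bases match no GENCODE transcript, and its GC box and NRF1 words only in the first. The NRF1 words of Exosc5 and Exosc10 are overlapping matches on both strands, and in Exosc1 GC boxes overlap each other, as do CCAAT words. The 9 promoters of the 8 genes were 48.0% to 75.7% G or C, against a median of 52.7% over all promoters. The shares of all promoters were not limited to tested genes. The part of base composition in the GC box count was not tested. Such matches only say that the letters are present. The promoters below are those of the subunits with the largest and the smallest difference that share their start region with a neighbour, and of Dis3. Each is read 5′ to 3′ on the strand of the subunit, with capitals marking the words just named, in either orientation. The Exosc1 stretch (chr19:41933265-41933564, minus strand) holds GC boxes and CCAAT, and the Exosc7 stretch (chr9:123112981-123113280, plus strand) a single GC box. The Dis3 stretch (chr14:99099721-99100020, minus strand) holds the ETS word, a GC box and CCAAT, and the Exosc8 stretch (chr3:54735315-54735614, minus strand) a pair of GC boxes.
Exosc1: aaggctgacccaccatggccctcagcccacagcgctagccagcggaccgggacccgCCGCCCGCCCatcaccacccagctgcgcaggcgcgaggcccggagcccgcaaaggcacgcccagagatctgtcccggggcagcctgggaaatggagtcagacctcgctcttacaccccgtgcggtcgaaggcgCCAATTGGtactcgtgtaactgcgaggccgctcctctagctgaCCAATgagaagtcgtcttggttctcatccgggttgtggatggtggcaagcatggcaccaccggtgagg
Exosc7: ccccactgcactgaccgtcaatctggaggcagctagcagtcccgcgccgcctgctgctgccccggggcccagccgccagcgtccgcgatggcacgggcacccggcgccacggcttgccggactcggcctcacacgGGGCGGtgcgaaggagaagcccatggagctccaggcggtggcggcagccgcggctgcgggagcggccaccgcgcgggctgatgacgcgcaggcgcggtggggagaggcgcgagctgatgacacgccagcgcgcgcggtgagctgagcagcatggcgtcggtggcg
Dis3: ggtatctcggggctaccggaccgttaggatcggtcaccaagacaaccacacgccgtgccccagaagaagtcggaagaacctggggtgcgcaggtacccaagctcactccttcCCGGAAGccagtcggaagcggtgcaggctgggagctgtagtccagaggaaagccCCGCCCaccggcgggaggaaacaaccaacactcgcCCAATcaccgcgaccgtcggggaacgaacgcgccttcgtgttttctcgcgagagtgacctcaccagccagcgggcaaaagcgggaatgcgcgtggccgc
Exosc8: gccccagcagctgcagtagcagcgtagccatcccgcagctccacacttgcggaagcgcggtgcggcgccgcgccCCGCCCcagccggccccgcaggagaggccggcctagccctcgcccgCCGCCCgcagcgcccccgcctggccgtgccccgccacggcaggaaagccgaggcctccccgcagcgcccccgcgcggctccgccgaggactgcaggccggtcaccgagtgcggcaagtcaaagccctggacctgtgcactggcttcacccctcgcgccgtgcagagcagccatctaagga

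All 10 subunits were expressed at 1 TPM or more in at least 3 samples, the minimum for testing, and each had a lower mean with lysine. The sum over the 10 was 137, 144 and 149 TPM in the lysine samples and 199, 206 and 220 TPM in the PBS samples. It averaged 143 ± 5.67 TPM with lysine and 208 ± 10.8 TPM with PBS (SD, n = 3 each), 31.2% lower. Samples of the groups did not overlap for 9 of the 10, where 33.7% of all tested genes were lower without overlap. By limma, fitted to log2(TPM + 1) of all 12539 tested genes, 7 of the 10 were lower at an adjusted p under 0.05, as were 29.3% of all tested genes. Nothing is read from these counts, because this contrast chose the group. The median log2 fold change was -0.46 over the subunits and -0.05 over all tested genes. In bulk RNA, fewer cells that express a gene and less of its RNA per cell cannot be told apart.

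**Figure D1:**
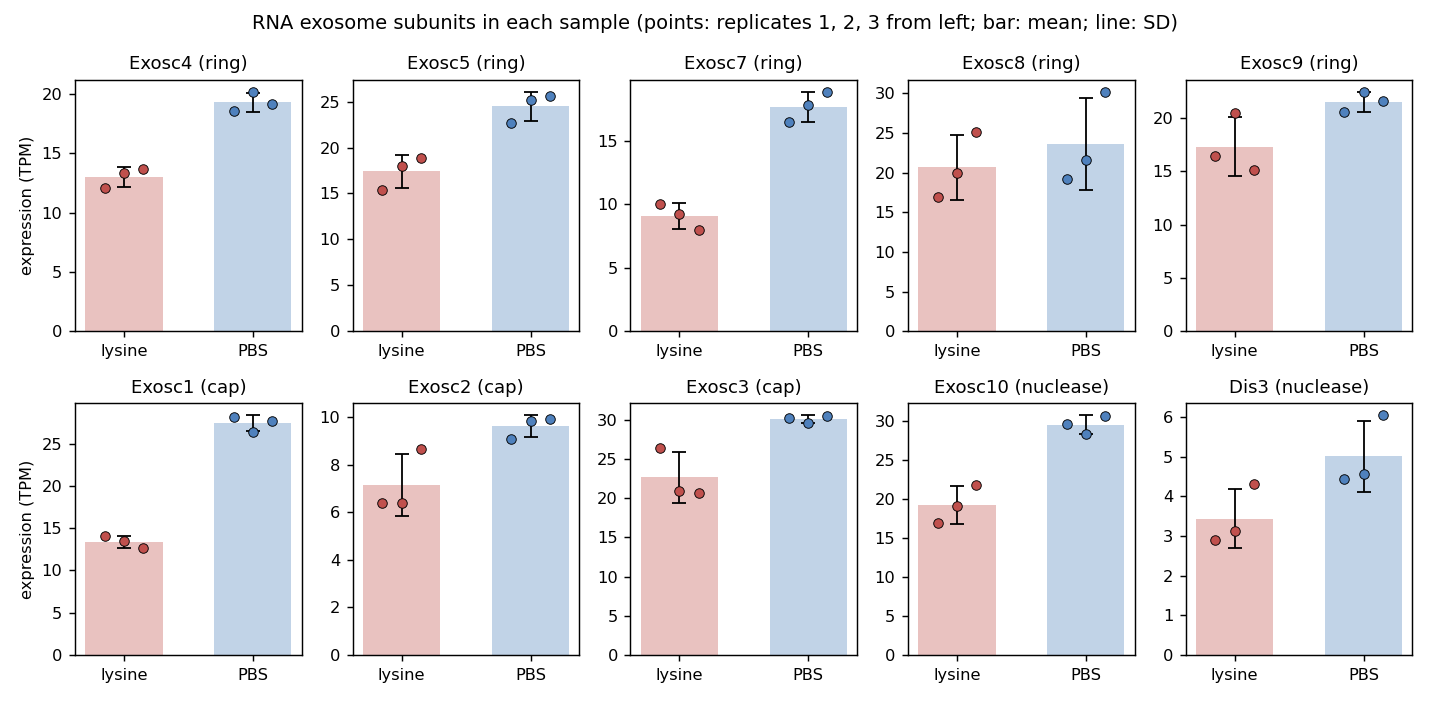
TPM (y axis, from 0) of each of the 10 subunits in the lysine and PBS samples; points are samples, bars means and lines SD (n = 3 each). The points of the groups separate for 9 subunits, and those of Exosc8 overlap.

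Among the ring genes, Exosc7 (chromosome 9, 123113215 to 123136129), which encodes the RRP42 protein, differed most. It had 9.98, 9.22 and 7.95 TPM in the lysine samples and 16.45, 17.77 and 18.79 TPM in the PBS samples. Every lysine sample lay far below every PBS sample, a log2 fold change of -0.90 ± 0.10 (SE), or a mean 48.8% lower. Exosc5 (chromosome 7, 25659164 to 25671368), which encodes RRP46, had 15.41, 17.94 and 18.84 TPM with lysine and 22.66, 25.19 and 25.60 TPM with PBS. Those groups were also apart, at -0.47 ± 0.097 on the log2 scale.

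Exosc4 (chromosome 15, 76327397 to 76330677), which encodes RRP41, was the steadiest ring gene within groups. It had 12.04, 13.32 and 13.65 TPM in lysine samples and 18.58, 20.18 and 19.14 TPM in PBS samples, with a log2 fold change of -0.54 ± 0.079. Its partner RRP45 is encoded by Exosc9 (chromosome 3, 36552606 to 36565727), at 16.41, 20.46 and 15.13 TPM with lysine and 20.60, 22.47 and 21.59 TPM with PBS. Here the highest lysine sample, 20.46 TPM, almost reached the lowest PBS sample, 20.60 TPM, and the log2 fold change was -0.31 ± 0.12. Exosc8 (chromosome 3, 54728678 to 54735393), which encodes RRP43, the partner of RRP46, had 16.92, 19.98 and 25.10 TPM with lysine and 19.19, 21.59 and 30.21 TPM with PBS. The groups overlapped, replicate 3 was the highest in both, and the log2 fold change of -0.18 ± 0.20 was smaller than its own error. Without PBS replicate 3 it was 0.0035. Replicate 3 also had the highest summed T and NK cell, B cell and dendritic cell markers of each group. Cd3g, part of the T cell receptor complex, had 0.60, 0.74 and 4.87 TPM with lysine and 2.67, 1.82 and 7.38 TPM with PBS. H2-Ab1, an antigen-presenting MHC class II gene, had 360, 354 and 677 TPM with lysine and 319, 338 and 741 TPM with PBS. Not every marker of these lists was highest in replicate 3. The dendritic cell marker Ccr7 had 497, 448 and 397 TPM with lysine and 457, 424 and 462 TPM with PBS. Klrb1c, of the T and NK list, had 0.09, 0.02 and 0.08 TPM with lysine and 0.25, 0.12 and 0.24 TPM with PBS. Across the 10 subunits replicate 3 was the highest sample for 6 with lysine and for 7 with PBS, and the part of these markers in that was not tested.

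The ring partner of RRP42 is MTR3, the product of Exosc6, and this subunit could not be followed. Exosc6 was listed at 0 TPM in all 6 samples. In GENCODE M21 its single exon (chromosome 8, 111056339 to 111057664) lies wholly inside the last exon of the transcript Aars-201 on the same strand (111055019 to 111057664). Aars encodes the alanyl-tRNA synthetase. It was listed at 112, 116 and 142 TPM in lysine samples and 39.8, 39.3 and 40.8 TPM in PBS samples, and it rose (log2 fold change 1.59 ± 0.094, limma adjusted p = 6.03e-05). An exact 0 in this unit can be a failed estimate, and whether reads of Exosc6 were assigned to Aars was not tested.

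**Figure D2:**
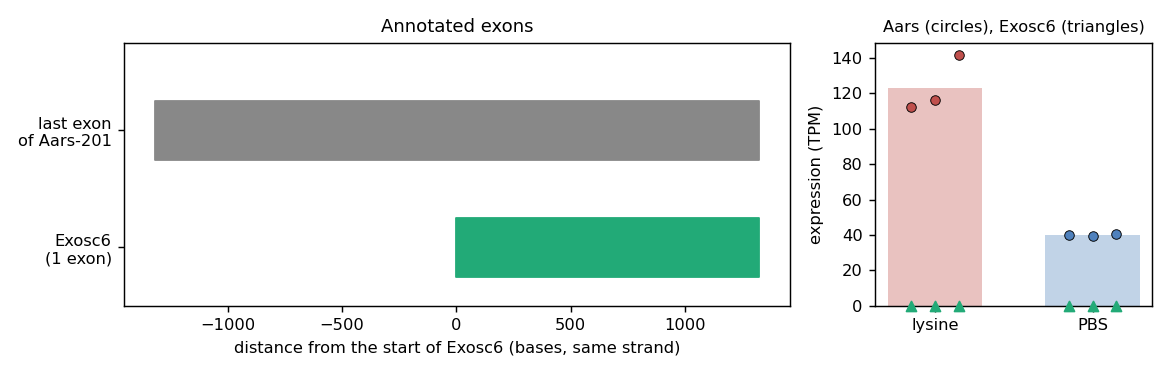
Left, annotated exons by distance in bases from the start of Exosc6; right, TPM (from 0) of Aars (circles, bars are means) and Exosc6 (triangles) in lysine and PBS samples. The single exon of Exosc6 lies inside the Aars exon and all 6 Exosc6 values are 0.

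The cap genes held the largest difference of the group. Exosc1 (chromosome 19, 41922292 to 41933423), which encodes CSL4, had 14.11, 13.46 and 12.68 TPM in lysine samples and 28.16, 26.34 and 27.72 TPM in PBS samples. Both groups were tight and wide apart, with a log2 fold change of -0.98 ± 0.072, or a mean 51.0% lower. Of all tested genes, 7.55% had a lower log2 fold change than Exosc1 and 9.33% a lower one than Exosc7. Those ranks come from the contrast that chose the group, for its 2 largest differences, and nothing is read from them. Exosc3 (chromosome 4, 45316613 to 45342732), which encodes RRP40 and is mutated in a human pontocerebellar hypoplasia, had 26.41, 20.92 and 20.67 TPM with lysine and 30.26, 29.54 and 30.46 TPM with PBS. The PBS samples were nearly equal while lysine replicate 1 stood above the other lysine samples, and the log2 fold change was -0.40 ± 0.10. Exosc2 (chromosome 2, 31670715 to 31681349), which encodes RRP4, was the lowest cap gene, at 6.40, 6.38 and 8.65 TPM with lysine and 9.10, 9.84 and 9.94 TPM with PBS. Lysine replicate 3 came close to the PBS samples, and the log2 fold change was -0.39 ± 0.13.

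Both nuclease genes had lower means with lysine. Exosc10 (chromosome 4, 148558429 to 148582401), the nuclear and nucleolar exonuclease RRP6, had 16.89, 19.09 and 21.81 TPM in lysine samples and 29.62, 28.38 and 30.72 TPM in PBS samples. The gap between the groups exceeded the range within each, with a log2 fold change of -0.60 ± 0.10. Dis3 (chromosome 14, 99075206 to 99099770), which cuts RNA both processively from the 3′ end and internally, had 2.9, 3.12 and 4.30 TPM with lysine and 4.44, 4.55 and 6.04 TPM with PBS. Lysine replicate 3 lay just below the lowest PBS sample, replicate 3 was the highest in both groups, and the log2 fold change was -0.44 ± 0.17. Its cytoplasmic relative Dis3l (chromosome 9, 64306756 to 64341288), which was not among the 10, had 6.30, 7.39 and 7.05 TPM with lysine and 7.54, 7.87 and 7.92 TPM with PBS. It did not pass the test (log2 fold change -0.15 ± 0.091, limma adjusted p = 0.20).

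The subunit mRNAs were not present in equal amounts. In PBS samples Exosc3 was the highest at 30.1 ± 0.484 TPM, and Exosc10 (29.6 ± 1.17 TPM) overlapped with it. Exosc1 (27.4 ± 0.950 TPM) came next, clear of its neighbours in the order. Exosc5, Exosc8 and Exosc9 followed, between 21.6 and 24.5 TPM on average, and each overlapped with the next of these. Exosc8 ranged from 19.19 to 30.21 TPM, so it also overlapped with Exosc3, Exosc10, Exosc1 and Exosc4. Exosc4 (19.3 ± 0.812 TPM) and Exosc7 (17.7 ± 1.17 TPM) overlapped. Exosc2 (9.63 ± 0.459 TPM) and Dis3 (5.01 ± 0.894 TPM) were each clear of the gene above, and the highest mean was 6.01 times the lowest. In lysine samples the order ran Exosc3, Exosc8, Exosc10, Exosc5, Exosc9, Exosc1, Exosc4, Exosc7, Exosc2 and Dis3, with overlap in 6 of 9 neighbouring pairs against 4 of 9 with PBS. The highest mean was then 6.59 times the lowest.

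Expressed as shares of the summed TPM, 2 genes had values that did not overlap between the groups. Exosc1 made up 10.3%, 9.35% and 8.52% of the sum in lysine samples and 14.1%, 12.8% and 12.6% in PBS samples. Exosc7 made up 7.26%, 6.41% and 5.34% with lysine and 8.26%, 8.63% and 8.53% with PBS. For each of these genes every lysine share lay below every PBS share, and the shares of the other 8 overlapped between groups. Among those 8 was Exosc8, at 14.4 ± 2.32% with lysine and 11.3 ± 2.15% with PBS. Dis3 kept the smallest share, at 2.39 ± 0.435% with lysine and 2.39 ± 0.302% with PBS. The TPM of Exosc10 was 5.82, 6.12 and 5.07 times that of Dis3 in lysine samples and 6.67, 6.24 and 5.09 times in PBS samples, overlapping ranges. By structural part, the cap sum averaged 43.2 ± 3.26 TPM with lysine and 67.1 ± 1.25 TPM with PBS, and the ring sum 77.5 ± 5.80 TPM with lysine and 106.7 ± 8.94 TPM with PBS. The nuclease sum averaged 22.7 ± 3.19 TPM with lysine and 34.6 ± 1.97 TPM with PBS. Each of these sums separated the groups.

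**Figure D3:**
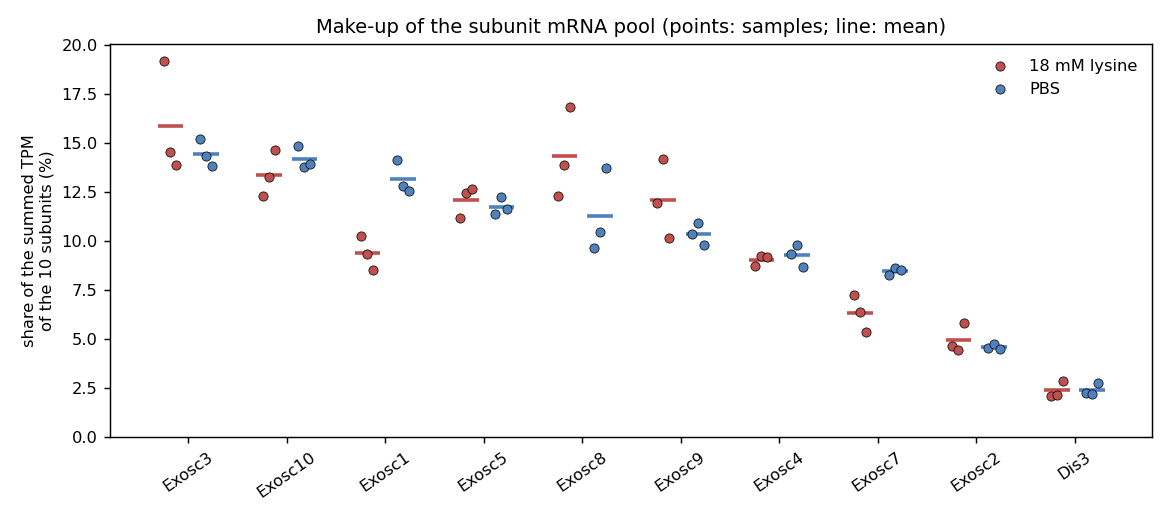
Share (%, y axis from 0) of each subunit in the summed TPM of the 10 subunits, in lysine (left of each pair) and PBS samples; points are samples and lines means. The shares of Exosc1 and Exosc7 separate the groups and those of the other 8 overlap.

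Of the 5 genes that start beside a subunit 1 passed the test, as higher, where 25.8% of all tested genes were higher. Zdhhc16, a palmitoyltransferase gene whose start lies in the Exosc1 promoter region printed above, had 29.60, 33.03 and 30.74 TPM in lysine samples and 29.81, 23.17 and 26.24 TPM in PBS samples. The groups overlapped (log2 fold change 0.23 ± 0.10, limma adjusted p = 0.093), although without PBS replicate 1 it passed as higher (adjusted p = 0.037). Zdhhc3, another palmitoyltransferase gene and the closest neighbour of all, averaged 27.6 ± 1.32 TPM with lysine and 27.2 ± 0.218 TPM with PBS (SD, n = 3 each; log2 fold change 0.02 ± 0.063, limma adjusted p = 0.81). The estimate was -0.0090 without lysine replicate 3. Bckdha, a subunit of branched-chain keto acid dehydrogenase beside Exosc5, averaged 24.6 ± 1.96 TPM with lysine and 23.3 ± 0.590 TPM with PBS (0.08 ± 0.078 on the log2 scale, limma adjusted p = 0.44).

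Pibf1, a centrosomal protein gene beside Dis3, had 9.92, 10.17 and 8.54 TPM in lysine samples and 6.23, 6.65 and 5.87 TPM in PBS samples. Its groups were apart and it rose by 0.54 ± 0.10 on the log2 scale (limma adjusted p = 0.0042). Alg5, a gene of protein glycosylation beside Exosc8, averaged 23.3 ± 2.75 TPM with lysine and 26.85 ± 0.492 TPM with PBS (log2 fold change -0.20 ± 0.093, limma adjusted p = 0.11). Without lysine replicate 3 it passed as lower (adjusted p = 0.021). Exons of 7 subunit genes also overlap an exon of a gene on the opposite strand, by 53 bases (Exosc3 with Dcaf10) to 510 bases (Exosc9 with the cyclin gene Ccna2), and Dis3 shares 325 bases with Pibf1. The sources used here do not say whether counting used strand, and without it reads from such shared bases cannot be told apart.

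**Figure D4:**
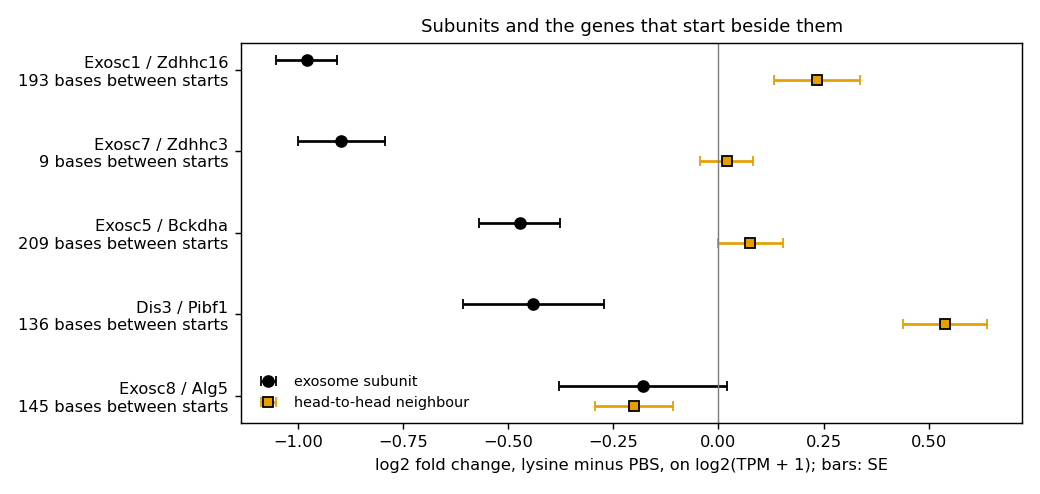
Log2 fold change (lysine minus PBS, on log2(TPM + 1); bars are SE) of the 5 subunits with a head-to-head neighbour (circles) and of that neighbour (squares). Exosc1 and Exosc7 lie near -0.98 and -0.90, and Zdhhc16 and Zdhhc3 near 0.23 and 0.02. The subunits were chosen by this difference and the neighbours by position, so nothing is read from the gap between them.

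The proteins that feed RNA to the nuclear exosome formed a list of 21 genes, and all were tested: 9 rose, 2 fell, and 10 missed the threshold. Of all tested genes 25.8% rose and 29.3% fell, and the share that passed in either direction was 52.4% of the list and 55.1% of all tested genes. The median log2 fold change was 0.22 over the list and -0.05 over all tested genes. Roles given for these adaptors come mostly from work in human cells. Mtrex, the MTR4 helicase through which most nuclear substrates reach the exosome, had 25.68, 28.62 and 28.05 TPM with lysine and 18.78, 19.45 and 21.89 TPM with PBS. Its groups were apart and it rose by 0.44 ± 0.084 on the log2 scale (limma adjusted p = 0.0048). Tent4b, the poly(A) polymerase that tags RNAs for the exosome in the TRAMP complex, rose to 29.7 ± 0.480 TPM with lysine, against 17.2 ± 0.150 TPM with PBS (log2 fold change 0.75 ± 0.059, limma adjusted p = 0.000139). Zc3h3, which works with the adaptor that handles polyadenylated nuclear RNA (PAXT), rose to 20.0 ± 0.567 TPM with lysine, against 10.3 ± 0.852 TPM with PBS (0.90 ± 0.083, limma adjusted p = 0.000249). Not every listed gene of TRAMP or PAXT rose. For TRAMP, Zcchc7 (log2 fold change -0.28 ± 0.10) and Tent4a (-0.008 ± 0.10) did not pass. For PAXT, Zfc3h1 (-0.04 ± 0.14), Pabpn1 (0.10 ± 0.071) and Rbm26 (-0.10 ± 0.085) did not pass, while Rbm27 rose (0.38 ± 0.082). These were named after their values were seen.

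Zcchc8 and Rbm7, the partners of MTR4 in the NEXT adaptor and chosen after their values were seen, both rose, by 0.60 ± 0.10 and 0.49 ± 0.062 on the log2 scale. Srrt, which encodes the cap-complex protein ARS2 and had the highest mean of the list, had 111.40, 114.11 and 143.27 TPM with lysine and 102.11, 100.96 and 111.48 TPM with PBS. The lowest lysine sample lay just under the highest PBS sample, and Srrt did not pass (log2 fold change 0.22 ± 0.11, limma adjusted p = 0.12; 0.032 to 0.043 in the 2 of 13 other settings where it passed). The 2 genes that fell were Nvl and Mphosph6. Nvl, an ATPase that acts with MTR4 in making the large ribosomal subunit, fell to 4.29 ± 0.376 TPM with lysine, against 8.22 ± 0.171 TPM with PBS (log2 fold change -0.80 ± 0.094, limma adjusted p = 0.000629). Mphosph6, named after its value was seen, encodes MPP6, which anchors MTR4 to the core, and fell by 0.50 ± 0.12 on the log2 scale to 18.8 ± 3.03 TPM with lysine, against 26.85 ± 1.13 TPM with PBS.

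In the cytoplasm the SKI complex delivers mRNA to the exosome. Of 5 listed cytoplasmic cofactor genes (the SKI genes Skiv2l, Ttc37 and Wdr61, with Hbs1l and the nuclease gene Dis3l) 1 rose, 1 fell and 3 did not pass. Thus 40.0% of the list passed, against 55.1% of all tested genes (25.8% higher and 29.3% lower). The SKI helicase gene Skiv2l had 29.59, 24.79 and 34.73 TPM with lysine and 25.38, 26.99 and 30.64 TPM with PBS, overlapping ranges (log2 fold change 0.09 ± 0.13, limma adjusted p = 0.59), and -0.025 on the log2 scale without lysine replicate 3. Hbs1l, which in humans yields both a ribosome-rescue GTPase and the SKI-exosome bridge, had 31.62, 31.59 and 32.81 TPM with lysine and 19.15, 18.88 and 21.25 TPM with PBS. It rose, with its groups far apart (log2 fold change 0.67 ± 0.070, limma adjusted p = 0.000415). A gene-level value does not separate those products. Wdr61, a SKI subunit shared with the PAF1 transcription complex, fell to 34.9 ± 3.60 TPM with lysine, against 46.5 ± 2.10 TPM with PBS (-0.41 ± 0.087, limma adjusted p = 0.0073).

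Other routes of RNA decay moved in both directions, as did all tested genes, of which 25.8% rose and 29.3% fell. Of 21 genes of decapping and 5′-to-3′ decay 5 rose, 4 fell and 12 did not pass, with 2 called lower without PBS replicate 2 or PBS replicate 3. The share that passed was 42.9% of this list and 55.1% of all tested genes. The decapping scaffold gene Patl1 rose most, to 60.5 ± 2.08 TPM with lysine, against 19.4 ± 0.851 TPM with PBS (log2 fold change 1.59 ± 0.063, limma adjusted p = 2.19e-05). Ddx6, the helicase that represses translation and promotes decapping, rose to 122 ± 1.83 TPM with lysine, against 56.3 ± 1.79 TPM with PBS (1.10 ± 0.051), and Lsm14a, its partner in mRNA granules, rose by 0.89 ± 0.10 on the log2 scale.

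Of 16 genes of poly(A) shortening and poly(A) binding 8 rose, 2 fell and 6 did not pass. Thus 62.5% passed, against 55.1% of all tested genes (25.8% higher and 29.3% lower). Cnot4, a ubiquitin ligase that associates with the CCR4-NOT deadenylase, and Cnot1, its scaffold, rose by 1.04 ± 0.087 and 0.74 ± 0.083 on the log2 scale. The deadenylase gene Parn fell to 3.41 ± 0.333 TPM with lysine, against 8.66 ± 0.0458 TPM with PBS (log2 fold change -1.13 ± 0.097, limma adjusted p = 0.000188). The other of the 2 that fell, Cnot9, named after its value was seen, was no longer called under median-of-ratios scaling or without lysine replicate 1 or 3 or PBS replicate 2 or 3, which left 1. The poly(A)-binding protein gene Pabpc1 had the highest mean, at 500 ± 14.2 TPM with lysine and 455 ± 10.8 TPM with PBS (log2 fold change 0.14 ± 0.047, limma adjusted p = 0.048), and it missed the threshold in 8 of 13 other settings (adjusted p from 0.079 to 0.36).

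Of 18 other enzymes that trim or extend RNA 3′ ends 4 rose, 7 fell and 7 did not pass. Thus 61.1% passed, against 55.1% of all tested genes (25.8% higher and 29.3% lower). Dis3l2, a relative of Dis3 that works without the exosome on uridine-tailed RNA, fell to 3.27 ± 0.260 TPM with lysine, against 7.88 ± 0.470 TPM with PBS (log2 fold change -1.06 ± 0.099, limma adjusted p = 0.000267). Tut4, which adds those uridine tails, rose to 23.2 ± 2.58 TPM with lysine, against 7.78 ± 0.673 TPM with PBS (1.46 ± 0.11, limma adjusted p = 0.000118). Rexo2, which clears very short RNA in mitochondria, fell by 0.66 ± 0.080 on the log2 scale and had the highest mean of the list. Over all 81 tested genes of these lists 27 rose, 16 fell and 38 did not pass, so that 53.1% passed. This is close to the 55.1% of all tested genes that passed.

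**Figure D5:**
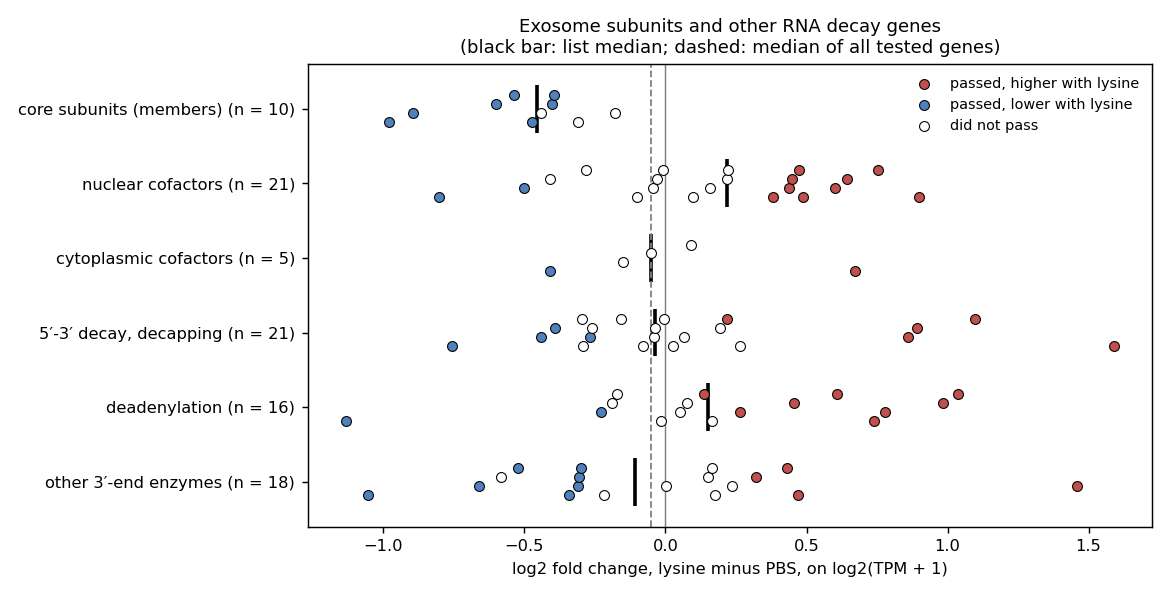
Log2 fold change (lysine minus PBS, on log2(TPM + 1)) of the 10 subunits and of the tested genes of 5 other RNA decay lists. Each point is a gene, filled where it passed at an adjusted p under 0.05. For the subunits the fill is a description only and is not read as a test. The nuclear cofactors have a median of 0.22 and all tested genes (dashed) one of -0.05, and the subunits were chosen by this difference.

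By deviation from the PBS mean, the genes nearest to Exosc10 were Dph5 and Cep83, and those nearest to Dis3 were Emg1 and Irf5. Likeness was the mean absolute difference, over the 6 samples, of log2(TPM + 1) after each gene's PBS mean was subtracted. It was 0.027 for Dph5 and 0.030 for Cep83, and 0.025 for Emg1 and 0.027 for Irf5. The measure includes the difference between lysine and PBS that chose the subunits, so genes with a like fold change lie near. The log2 fold changes were -0.61 for Dph5 and -0.59 for Cep83, and -0.48 for Emg1 and -0.40 for Irf5. Whether these genes vary together within groups was not tested.

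Between 12277 and 12449 genes reached 1 TPM in each sample, and the correlation of log2(TPM + 1) over tested genes was 0.974 to 0.982 within groups and 0.914 to 0.934 between them. The dendritic cell marker Itgax averaged 378 ± 6.54 TPM with lysine and 364 ± 19.4 TPM with PBS, and the summed TPM of 8 dendritic cell markers ranged from 4221 to 5551 with lysine and from 3958 to 5868 with PBS. Among these markers Batf3 was lower and Cd209a stayed below 1 TPM in every sample. Of 8 macrophage markers 5 were lower, where 29.3% of all tested genes were lower. The most abundant, Cd14 (log2 fold change 0.23 ± 0.10) and Csf1r (-0.12 ± 0.074), were not called, nor was C1qa. The sum of all 8 was 704 to 752 TPM with lysine and 778 to 808 TPM with PBS. Of 8 neutrophil lineage markers 3 were tested and 1, S100a8, was lower. Their sum was 36.3 to 44.6 TPM with lysine and 77.0 to 116 TPM with PBS, and Elane was at 0. Of 6 mast cell and basophil markers 3 were tested and 1, Cpa3, was lower, and their sum was 8.03 to 12.7 TPM with lysine and 13.3 to 18.3 TPM with PBS. The 6 T and NK cell markers summed to 1.5 to 11.4 TPM with lysine and 4.56 to 19.2 TPM with PBS, highest in replicate 3 of both groups. The 5 B cell markers summed to 1.18 to 4.10 TPM with lysine and 0.52 to 2.85 TPM with PBS, and the 4 erythroid markers to at most 0.12 TPM with lysine and 2.88 TPM with PBS. The B cell and dendritic cell sums were also highest in replicate 3 of both groups. The part of these shifts in the subunit values was not tested.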

How the data were processed

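The authors deposited 1 table of TPM with a column per sample, in which each column sums to 1000000. The series' design text states that RSEM gave the abundances. Per the submitters' processing notes, HISAT2, StringTie, RSEM and edgeR were used with GRCm38.p6. Tool versions, the annotation and whether counting used strand were not stated there. TPM keeps no depth, so the depth is unknown and no counting error is given, and values are relative within a sample. Columns K1 to K3 were matched to the lysine samples by the letter code of lysine and the replicate number.

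A minimum of 1 TPM in 3 or more samples decided which genes of the whole table were tested, with limma 3.58.1 (R 4.3.3), with an intensity trend, on log2(TPM + 1). This pseudocount of 1 understates the change of low genes. Calls used Benjamini-Hochberg adjusted p-values under 0.05 over all tested genes. An exact permutation test of 3 samples against 3 cannot go below p = 0.1. Positions come from GENCODE M21 (GRCm38), which held 97.5% of the tested genes, and promoter sequences from RefSeq. Skiv2l, Ttc37, Wdr61 and Patl1 are the table's names for Skic2, Skic3, Skic8 and Pat1b.

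The subunits and the gene lists were chosen with earlier results of these data known. Named genes were the subunits with Exosc6, Dis3l, Mtrex and Skiv2l, in each list the 3 with the smallest adjusted p and the highest mean, and for Exosc10 and Dis3 the 2 genes nearest in pattern with a mean of at least 5 TPM. Head-to-head neighbours, and other genes outside this rule, were chosen after seeing the data. Alternatives were a pseudocount of 0.1, a filter of 5 TPM or none, a replicate block, median-of-ratios scaling, quantile normalization, limma without trend, and each sample left out. Protein sequences were not analysed here.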

Additional observations from a re-analysis of the deposited data

How the results depend on the processing

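The number of subunits called lower was 7, and 6 to 8 when single samples were left out. Of all 12539 tested genes 3673 were called lower, and 3082 to 3789 when single samples were left out. The subunit counts describe genes chosen by the same difference and show no stability. The fold change of Exosc8 ranged from -0.32 to 0.0035 on the log2 scale when samples were left out. The summed TPM was 29.2% to 32.7% lower with lysine when samples were left out, 28.8% under median-of-ratios scaling and 30.3% under quantile normalization. With samples left out, decapping and 5′-to-3′ decay genes called lower numbered 2 to 5, and poly(A) genes called lower 1 to 2 (1 under median-of-ratios scaling). Head-to-head neighbours called higher then numbered 1 to 2 and those called lower 0 to 1. Skiv2l ranged from -0.025 to 0.21 and Zdhhc3 from -0.0090 to 0.057 on the log2 scale. The cause was not tested. Single genes outside the subunits were followed only for the list genes named by the rule, the 5 head-to-head neighbours and Aars. Of their values, 311 kept direction and side of the threshold, 8 lost the call (all of Pabpc1), 4 gained it and 2 changed sign. Cnot9 and the other named genes are not in this count.

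The numbers were not taken to pair samples, because no label says that they do. Same-numbered samples deviated together with correlations of 0.17, 0.092 and 0.25 over 12539 genes, against -0.21 to 0.048 for the other pairs. Each sample thus correlated best with its own number, and whether same-numbered samples shared a batch was not tested. With a replicate block 9 subunits were called lower, from which nothing is read. Of all 12539 tested genes 3396 were then higher and 3943 lower, against 3231 and 3673 without the block. The depth is unknown, so counting error could not be set apart from the spread between samples, and the SE of Exosc8 (0.20) exceeded its own difference.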
